A study of Mus musculus with 12 samples.

Results

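MHC class II presentation by alveolar type 2 (AT2) cells was followed through 7 genes, H2-Aa, H2-Ab1, H2-Eb1, H2-DMa, H2-DMb1, Cd74 and Ciita, which have known roles in this pathway. No measured value enters the rule, but the genes were chosen with earlier results of these data known. All 7 were among the 21878 genes of the table, and all 7 passed the filter for testing (1 FPKM or more in 3 or more samples), as did 10675 genes in all. Ptprc, which encodes the leukocyte surface protein CD45, was read beside them as a check for leukocyte RNA. RNA was sequenced from C57BL/6 mouse AT2 cells in 4 groups of 3 samples. AT2-PBS and AT2-BLM came from Atg5 f/f mice (labelled wild type) given PBS or bleomycin (BLM, which injures the alveolar epithelium) at 2 U/kg. Atg5-/- AT2-PBS and Atg5-/- AT2-BLM came from Nkx2.1Cre;Atg5 f/f mice, in which Cre driven by Nkx2.1 removes the floxed part of Atg5, a gene needed to build autophagosomes, throughout the lung epithelium and in other cells that express Nkx2.1. All 4 groups carry the floxed allele. The mice were 8 to 12 weeks old, and cells were collected at day 14, a day that the sources do not name for Atg5-/- AT2-PBS. Cells were sorted as negative for CD31, CD34, CD45, CD24 and Sca-1 and positive for EpCAM, so the gate should remove cells that carry Ptprc protein. Whether a sample is 1 mouse or a pool is not stated, and p-values then measure only the spread between these samples.

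MHC class II molecules show peptides from the endosome to CD4+ T cells. An alpha and a beta chain (H2-Aa with H2-Ab1, or an E alpha chain with H2-Eb1) assemble on the invariant chain, Cd74, which fills the groove and steers the complex to endosomes, where cathepsins cut it down to a fragment called CLIP. H2-DM, a dimer of H2-DMa and H2-DMb1, then exchanges CLIP for peptide. Ciita is the coactivator that sets transcription of the whole set through factors bound at its promoters, and interferon-gamma is its best known inducer. Dendritic cells, macrophages and B cells are the usual presenting cells, and AT2 cells are known as epithelial cells that carry class II without injury. Autophagy can deliver cytosolic proteins to class II compartments.

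Several libraries stood apart, and they are named here because results below rest on them. Of 10 AT2 markers, 9 were at 29.7 FPKM or above in every library, while Sftpc, the surfactant protein C gene that defines the cell type, was listed at 0 in 11 of 12 libraries and at 112570 FPKM in AT2-BLM replicate 2. A listed 0 can be a failed estimate, so Sftpc was not used. Ins2, an islet gene, lay between 1949 and 2003 FPKM in 3 libraries (AT2-PBS replicate 1 and Atg5-/- AT2-PBS replicates 1 and 2) and at 3.86 FPKM or below in the others. The study's methods name male mice for BLM injury, yet 4 Y-linked genes summed to 0.733 FPKM or less in 7 libraries (AT2-PBS replicate 1, AT2-BLM replicates 1 and 2, all of Atg5-/- AT2-PBS and Atg5-/- AT2-BLM replicate 1) and to between 14.2 and 20.9 FPKM in the other 5. Atg5 was listed at 6.01 to 12.5 FPKM in AT2-PBS, 9.97 to 11.1 in AT2-BLM, 6.72 to 10.1 in Atg5-/- AT2-PBS and 8.37 to 8.84 in Atg5-/- AT2-BLM. Atg5-/- AT2-BLM lay below AT2-BLM, while Atg5-/- AT2-PBS overlapped AT2-PBS. FPKM over a whole gene need not show loss of a floxed exon, and groups are called by their labels. FPKM summed to between 390141 and 549169 per library, and the number of fragments behind them is unknown.

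Class II promoters share an X box, bound by the RFX complex, and a Y box, bound by NF-Y, which together recruit Ciita. RefSeq promoters (GRCm38.p6, 250 bases before to 50 after the start) were matched for 4 of the 7 genes. The search used GCAAC, which lies within the X box, and ATTGG, the inverted CCAAT of the Y box, each on both strands, and then GCAAC followed on the same strand by ATTGG with 15 to 30 bases between. The 120 bases before the start are shown for 3 genes, to set the shared elements beside the shared pattern of levels given below, with GCAAC and ATTGG in capitals.
H2-Aa, chr17:34287824-34287943, minus strand: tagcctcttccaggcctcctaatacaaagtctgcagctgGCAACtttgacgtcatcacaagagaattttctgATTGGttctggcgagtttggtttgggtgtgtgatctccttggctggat
H2-Eb1, chr17:34305747-34305866, plus strand: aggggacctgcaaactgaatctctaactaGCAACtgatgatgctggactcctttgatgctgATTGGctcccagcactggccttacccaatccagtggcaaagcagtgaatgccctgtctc
H2-DMb1, chr17:34153071-34153190, plus strand: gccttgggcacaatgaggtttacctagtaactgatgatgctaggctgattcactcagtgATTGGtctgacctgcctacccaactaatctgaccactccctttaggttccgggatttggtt
H2-Aa and H2-Eb1 held the pair, with 28 and 27 bases between its members. H2-DMb1 held ATTGG without GCAAC, and neither of 2 listed starts of H2-DMa held the pair. Of the 32851 promoters in the table, 0.834% held the pair, 35.2% held GCAAC and 37.4% held ATTGG. These matches describe letters in a window, not bound sites. The search was exact and passed over near matches, such as gtaactgatgatgct in H2-DMb1 beside GCAACtgatgatgct in H2-Eb1.

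In uninjured AT2 cells, class II transcripts were among the most abundant measured. FPKM is scaled by transcript length, so levels can be set beside each other between genes. Cd74, the invariant chain (chromosome 18, 60963502 to 60972300 of mm9, NCBIM37), stood at 5186, 4088 and 5977 FPKM in the AT2-PBS samples (replicates 1 to 3, the order used throughout) and ranked from 6 to 9 among all genes. H2-Aa, the A alpha chain (chromosome 17, 34406276 to 34424772), was at 1688, 1286 and 1700 FPKM and ranked 18 or 19. H2-Ab1, the A beta chain (chromosome 17, 34400154 to 34406363), was at 1505, 1080 and 1414 FPKM, close to its partner. The annotated ends of these neighbours overlap on opposite strands, and the sources disagree on whether the libraries kept strand, so reads in the overlap cannot be assigned.

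H2-Eb1, the E beta chain (chromosome 17, 34442828 to 34453144), was lower, at 321, 217 and 298 FPKM. C57BL/6 mice carry the E alpha chain gene as a pseudogene, H2-Ea-ps, which was listed at 0.19 FPKM or below in AT2-PBS. The chains of the peptide exchanger were unequal. H2-DMb1 (chromosome 17, 34290017 to 34297168) was at 181, 135 and 164 FPKM, and H2-DMa (chromosome 17, 34272127 to 34276046) at 16.7, 11.6 and 12.98 FPKM. The ratio of H2-DMb1 to H2-DMa was 10.8 to 12.6 in AT2-PBS, 7.48 to 8.61 in Atg5-/- AT2-PBS, 12.1 to 13.1 in Atg5-/- AT2-BLM, and 12.3, 11.9 and 20.2 in AT2-BLM. H2-DMb1 has a near-identical neighbour, H2-DMb2, and how reads were split between them is not stated. Ciita (chromosome 16, 10480237 to 10527657) was the lowest of the 7, at 4.76, 3.90 and 4.39 FPKM.

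**Figure D1:**
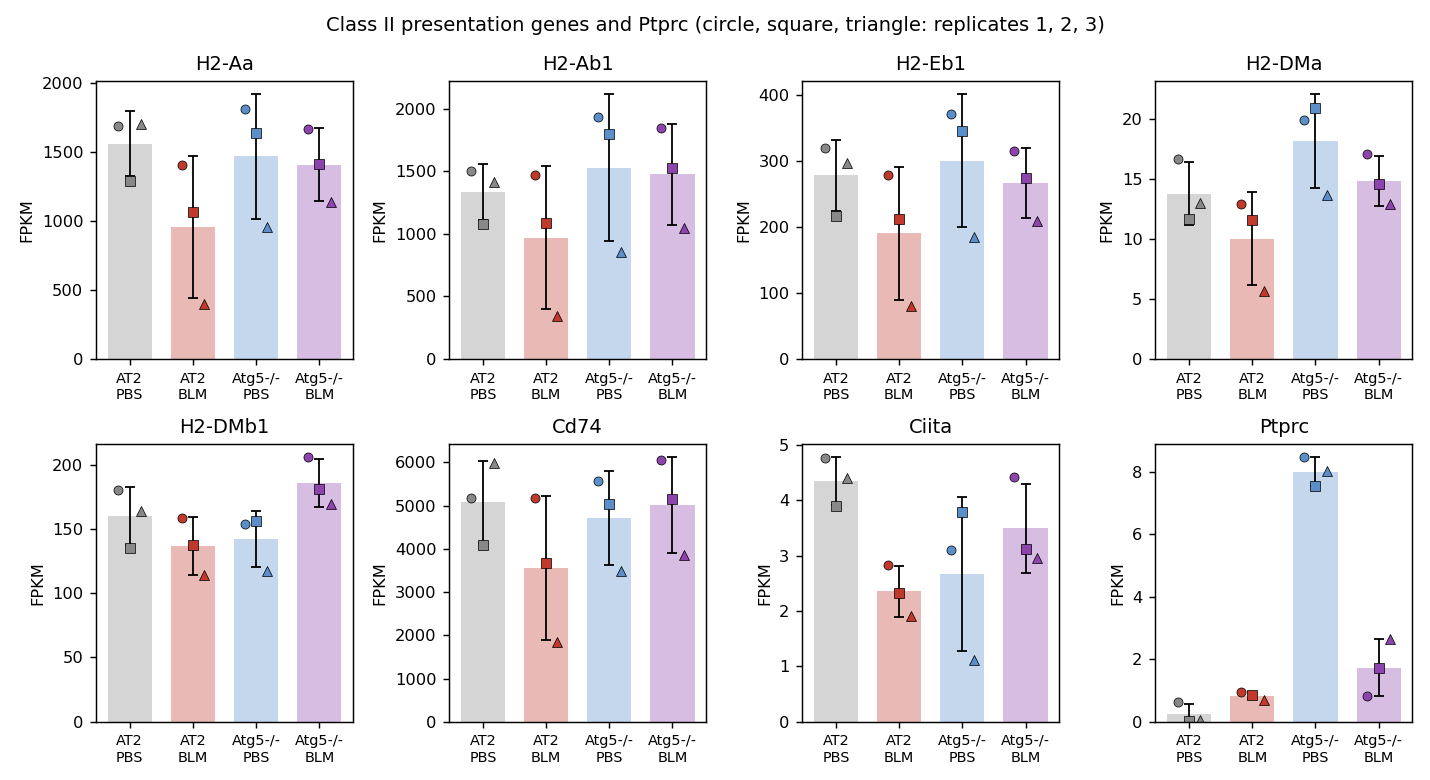
FPKM of the 7 class II presentation genes and of Ptprc, each panel on its own linear axis from 0. Points are samples (circle, square and triangle for replicates 1, 2 and 3), bars are means of 3 samples and error bars are SD. AT2-BLM had the lowest mean for each of the 7 genes, and its replicate 3 lay at 398 FPKM for H2-Aa against 1409 and 1068 in replicates 1 and 2.

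The 7 genes together made up 1.75 to 2.29% of all FPKM in AT2-PBS. The share was 1.90%, 1.13% and 0.651% in AT2-BLM replicates 1 to 3, 1.32 to 2.07% in Atg5-/- AT2-PBS and 1.55 to 2.56% in Atg5-/- AT2-BLM. The genes went up and down together from library to library. In AT2-PBS, replicate 2 was the lowest for all 7 genes, and in each of the other 3 groups replicate 3 was the lowest for all 7. Whether replicate numbers pair samples of different groups is not stated. AT2-BLM replicate 3 was the lowest of the 12 libraries for 6 of the 7 genes. Its H2-Aa ranked 161 among all genes, against ranks of 18 to 39 in the other 11 libraries. That library also had the highest Krt8, an epithelial keratin gene, at 1266 FPKM, while EpCAM transcripts (Epcam, 156 FPKM) lay within the range of the others. Of the AT2 markers, its Sftpa1 was the lowest of the 12 libraries, at 4967 FPKM, and its Napsa the highest, at 3289 FPKM. H2-DMb1 and Ciita moved least within AT2-BLM, where the highest library was 1.39 and 1.48 times the lowest, against 4.25 times for H2-Ab1 and 3.54 times for H2-Aa.

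**Figure D2:**
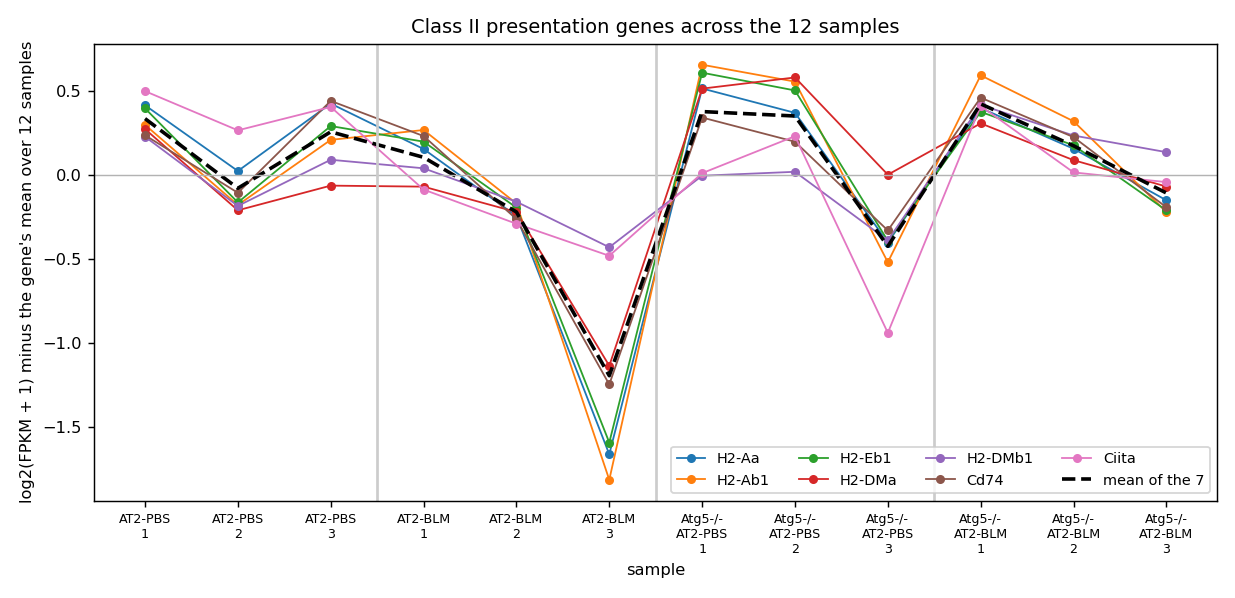
Log2(FPKM + 1) of each class II gene minus its own mean over the 12 samples, with the mean of the 7 genes dashed; vertical lines separate groups. The genes move together, with the lowest values in AT2-BLM replicate 3, where H2-DMb1 and Ciita fall less far than the other 5.

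Leukocyte RNA was read from Ptprc and from lists of markers. In AT2-PBS, Ptprc stood at 0.62, 0.01 and 0.06 FPKM. AT2-BLM had 0.95, 0.85 and 0.71 FPKM, Atg5-/- AT2-PBS had 8.46, 7.54 and 8.01 FPKM, and Atg5-/- AT2-BLM had 0.83, 1.72 and 2.64 FPKM. Atg5-/- AT2-PBS was thus above every other group, with a mean 34.4 times that of AT2-PBS. H2-Aa was at 1286 FPKM in AT2-PBS replicate 2, the library in which Ptprc was at 0.01 FPKM. In that library Itgax (a dendritic cell integrin), Marco (an alveolar macrophage receptor) and Cd3e (a T cell receptor subunit) were listed at 0, while Mrc1, Cd68, Fcer1g and Ly6c2, of the macrophage or monocyte list, were at 0.57, 5.26, 5.22 and 29.2 FPKM, and Ccr7, of the dendritic cell list, was at 0.87 FPKM. In Atg5-/- AT2-PBS, where Ptprc was highest, H2-Aa lay between 957 and 1810 FPKM, a range that overlapped AT2-PBS. The part of leukocyte RNA in the class II levels was not tested.

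Atg5-/- AT2-PBS was also above the other groups for 4 of the 5 leukocyte lists, all but that of B cells, whose ranges overlapped. The sum of 10 general leukocyte genes was 72.3 to 115 FPKM in AT2-PBS, 88.7 to 159 in AT2-BLM, 396 to 502 in Atg5-/- AT2-PBS and 117 to 194 in Atg5-/- AT2-BLM. Lcp1, at 41.0 to 84.3 FPKM in every library, made most of the sum in AT2-PBS, where 4 of the 10 genes were at 1 FPKM or above in all samples. The sum of 12 macrophage or monocyte genes was 43.3 to 96.7, 138 to 206, 783 to 1086 and 132 to 331 FPKM in the same order of groups. Dendritic cell genes summed to 0.816 to 2.78, 0.829 to 4.06, 22.3 to 38.6 and 2.97 to 7.14 FPKM. B cell genes summed to 16.1 to 20.1, 11.4 to 27.7, 22.0 to 77.4 and 19.9 to 33.4 FPKM, most of it Cd79b, which was at 11.04 FPKM or above in every library, with Pax5, which defines the lineage, at 0.22 FPKM or below. T cell genes summed to 0.069 to 1.10, 1.17 to 4.16, 6.09 to 15.4 and 2.42 to 3.85 FPKM. Atg5-/- AT2-PBS also held more fibroblast RNA (75.8 to 80.7 FPKM over 3 genes, at 32.6 or below elsewhere) and more liver RNA (1602 to 2735 FPKM over 5 genes, at 936 or below elsewhere). Endothelial genes summed to 0.393 to 14.3 FPKM over all libraries. In such bulk samples, fewer cells of a type and less RNA per cell cannot be told apart.

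**Figure D3:**
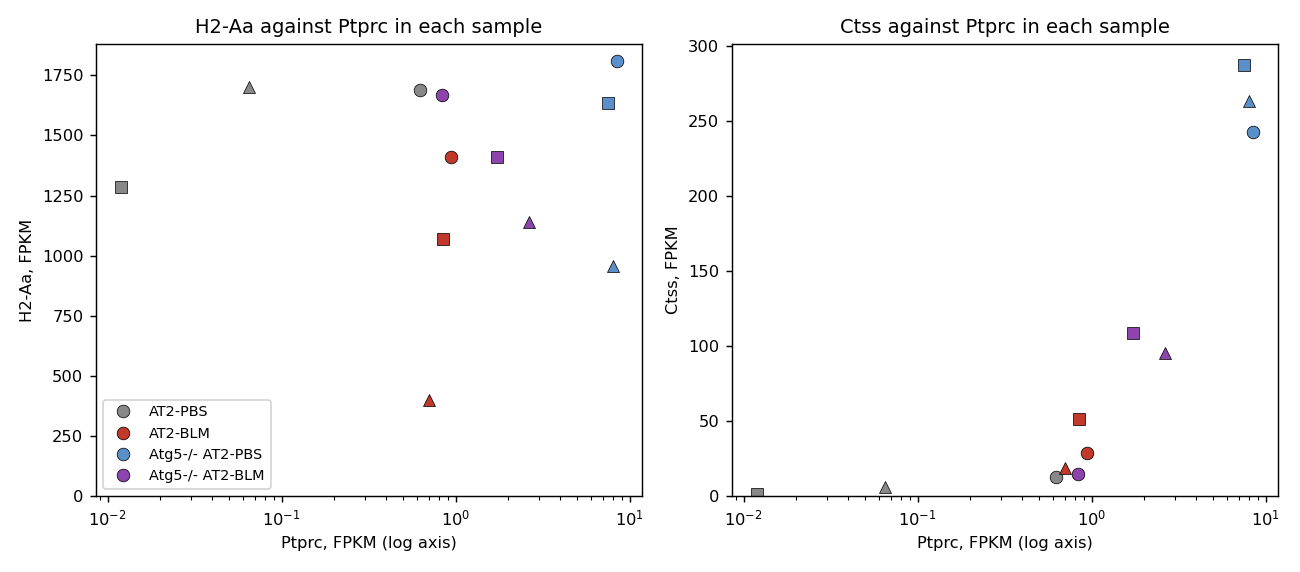
H2-Aa (left) and Ctss (right) in FPKM on linear axes from 0, against Ptprc in FPKM on a log axis; each point is a sample, coloured by group, with circle, square and triangle for replicates 1, 2 and 3. H2-Aa was at 1286 FPKM in the library with Ptprc at 0.01 FPKM, while Ctss was at 243 to 287 FPKM in the 3 libraries with the highest Ptprc and at 109 or below elsewhere.

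The first comparison asked how BLM injury changed class II transcripts in AT2 cells. All 7 genes were lower on average in AT2-BLM than in AT2-PBS, but only 2 met the study's criterion for a change, which is a fold change of at least 1.4, here on the log2(FPKM + 1) scale, with p under 0.05 before adjustment, and none had an adjusted p under 0.05. Of all tested genes, 28.4% met the criterion (20.6% higher, 7.77% lower) and 17.8% had an adjusted p under 0.05. Ciita was at 2.83, 2.33 and 1.92 FPKM in AT2-BLM, below every AT2-PBS sample, a log2 fold change of -0.68 (SE 0.27, adjusted p = 0.105 in limma). H2-Aa was at 1409, 1068 and 398 FPKM, and the groups overlapped, with a log2 fold change of -0.87 (SE 0.40, 95% interval -1.74 to -0.0028, adjusted p = 0.146 in limma). Ciita was the 1 gene of 7 with ranges that did not overlap, against 40.2% of all tested genes.

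The other 5 did not pass. H2-Ab1 was at 1473, 1087 and 346 FPKM (log2 fold change -0.68), H2-Eb1 at 279, 212 and 79.8 FPKM (-0.71) and Cd74 at 5169, 3668 and 1851 FPKM (-0.62). For these 3 genes, AT2-BLM replicates 1 and 2 lay within or near the AT2-PBS range and replicate 3 far under it. H2-DMa was at 12.9, 11.5 and 5.64 FPKM (-0.48) and H2-DMb1 at 158, 138 and 114 FPKM (-0.23). The median log2 fold change of the 7 was -0.68, beside 0.17 for all tested genes. Relative to that shift of all genes, the changes of Ciita and H2-Aa were -0.85 and -1.05. AT2 markers had a median of -0.25 here and epithelial genes one of 0.52. Of 9 tested AT2 markers 1 was called higher, Sftpb (1.81, adjusted p = 0.0436 in limma). Lower were 2, Lpcat1 (-0.49, adjusted p = 0.037 in limma) and Abca3 (-0.51, adjusted p = 0.0771). Of all tested genes, 20.6% were called higher and 7.77% lower. The part of these changes in the class II values was not tested. Scaling set the balance of calls over all genes: 72.6% of them were higher in the values as deposited, 49.1% once quantiles were equalized, 52.9% under median-ratio scaling and 43.2% under scaling to Cdh1, while the class II genes kept their direction under all 3.

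These calls rested on single libraries. Without AT2-BLM replicate 3, AT2-PBS replicate 1 or AT2-PBS replicate 3, none of the 7 was called, without AT2-PBS replicate 2 or AT2-BLM replicate 2 only 1 was, and without AT2-BLM replicate 1, 6 were called. Without AT2-BLM replicate 3 the log2 fold change of H2-Aa was -0.33 and that of Ciita -0.58. AT2-BLM replicate 3 was also the 1 library of its group with Y-linked expression, and neither class held enough samples for a value of its own. With Y-linked expression as a covariate, 6 of the 7 genes were called lower, H2-Aa by -1.09 (adjusted p = 0.0357 in limma, 0.0357 to 0.469 over all alternatives). With Ptprc as a covariate none was called, but the log2 fold changes stayed close to those without it, at -0.88 for H2-Aa, -0.57 for Ciita and -0.57 for the median of the 7. Ptprc itself was called higher in AT2-BLM (log2 fold change 0.60, SE 0.25, adjusted p = 0.115 in limma). It was at 0.71 to 0.95 FPKM in AT2-BLM and at 0.01 to 0.62 FPKM in AT2-PBS, without overlap. The fit with Ptprc as a covariate can thus hardly tell it from BLM. The part of Ptprc in the class II values was not tested beyond that fit.

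**Figure D4:**
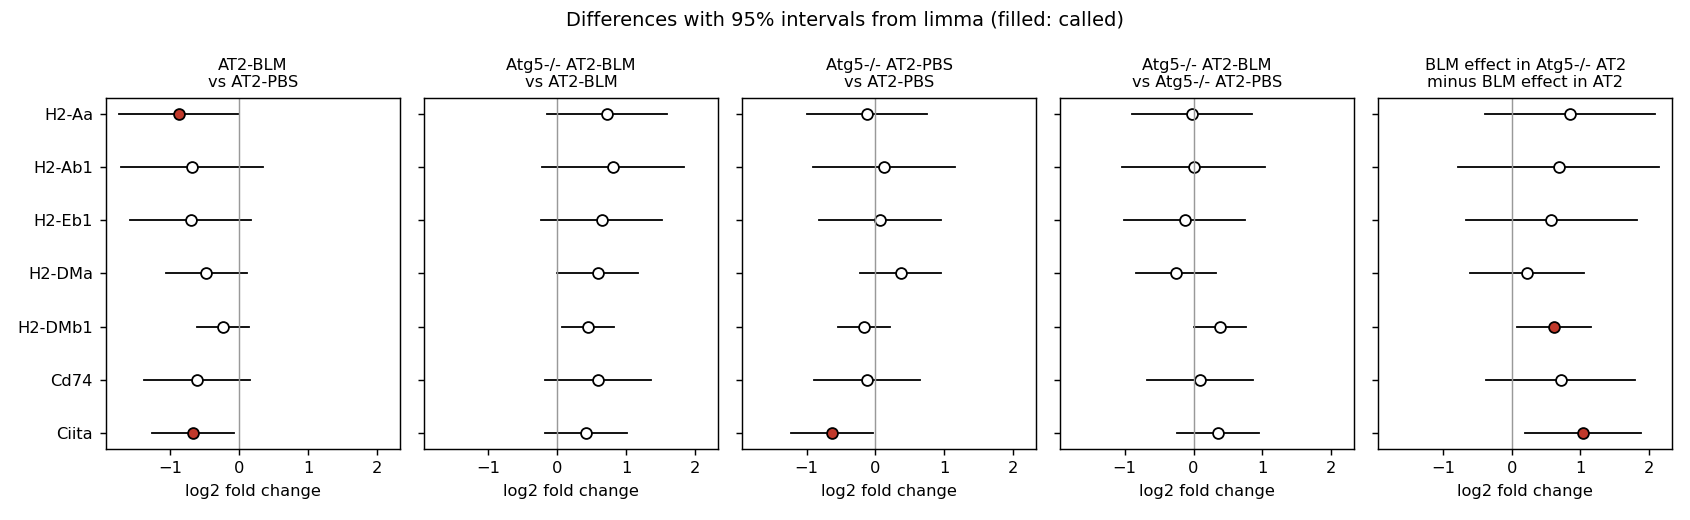
Log2 fold change on the log2(FPKM + 1) scale (points) with 95% intervals from limma (lines) for the 7 class II genes in each comparison, and in the last panel the BLM effect in Atg5-/- AT2 minus that in AT2. Filled points met the criterion: H2-Aa and Ciita in AT2-BLM, Ciita in Atg5-/- AT2-PBS, and H2-DMb1 and Ciita in the last panel.

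The second comparison asked whether Atg5 loss changed class II transcripts during BLM injury. All 7 genes were higher on average in Atg5-/- AT2-BLM than in AT2-BLM and none met the criterion. Of all tested genes, 5.16% met it (2.04% higher, 3.12% lower) and 0.00937%, a single gene, had an adjusted p under 0.05. H2-DMb1 was at 206, 181 and 169 FPKM, above every AT2-BLM sample, with a log2 fold change of 0.45 (SE 0.17, adjusted p = 0.618 in limma), just under the required fold. H2-DMa was at 17.1, 14.5 and 12.9 FPKM and Ciita at 4.42, 3.12 and 2.95 FPKM, with log2 fold changes of 0.58 and 0.41. In these 3 of 7 genes the groups did not overlap, against 13.4% of all tested genes, although the lowest H2-DMa value in Atg5-/- AT2-BLM (12.93) barely cleared the highest in AT2-BLM (12.92).

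H2-Aa was at 1669, 1410 and 1140 FPKM (log2 fold change 0.72, 95% interval -0.15 to 1.59), and H2-Ab1 at 1847, 1527 and 1049 FPKM (0.80, -0.23 to 1.84). H2-Eb1 was at 316, 275 and 210 FPKM (0.64) and Cd74 at 6058, 5146 and 3851 FPKM (0.59). All 4 overlapped AT2-BLM, and their intervals include both no change and a rise of more than 1 log2 unit. The median of the 7 was 0.59, beside -0.05 for all tested genes. This comparison shares the AT2-BLM samples with the first, so a low AT2-BLM replicate 3 enters both. Without it the log2 fold change of H2-Aa was 0.18, and without AT2-BLM replicate 1 it was 1.09 and 6 of the 7 genes were called. With Y-linked expression as a covariate, 6 were called as well, in a fit where replicate 3 is the 1 AT2-BLM library with Y-linked expression. Ptprc did not meet the criterion here (log2 fold change 0.52, adjusted p = 0.653 in limma). Of all genes called here, 39.6% were higher, against 48.5% once quantiles were equalized, 50.8% under median-ratio scaling and 80.2% under scaling to Cdh1.

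The third comparison asked what Atg5 loss changed without injury. Only Ciita met the criterion. It was at 3.10, 3.78 and 1.12 FPKM in Atg5-/- AT2-PBS, all below AT2-PBS, and fell by 0.62 on the log2 scale (SE 0.27, adjusted p = 0.199 in limma). Of all tested genes, 19.3% met the criterion (14.1% higher, 5.16% lower), 11.2% had an adjusted p under 0.05 and 28.9% had ranges that did not overlap. The class II chains overlapped AT2-PBS. H2-Aa was at 1810, 1636 and 957 FPKM, H2-Ab1 at 1929, 1799 and 852 FPKM and Cd74 at 5580, 5049 and 3499 FPKM. The log2 fold changes of the other 6 genes ran from -0.17 (H2-DMb1) to 0.37 (H2-DMa), with intervals as wide as -0.91 to 1.15 for H2-Ab1. The median of the 7 was -0.12, beside 0.02 for all tested genes.

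The direction of H2-Aa, H2-DMb1 and Cd74 turned with scaling to Cdh1, and that of H2-Ab1 and H2-Eb1 with quantile normalization. The Ciita call was lost without any 1 AT2-PBS replicate and without Atg5-/- AT2-PBS replicate 3 (log2 fold change -0.27), and with scaling to Cdh1 (-0.32), where H2-DMa was called higher in its place. Of calls among all tested genes, 73.2% were higher, against 44.7% once quantiles were equalized, 67.0% under median-ratio scaling and 97.2% under scaling to Cdh1. Ptprc was higher in Atg5-/- AT2-PBS by 2.90 on the log2 scale (SE 0.25, adjusted p = 2.83e-05 in limma), although it too passed the filter only through this group, and sums of leukocyte, fibroblast and liver genes were higher as given above. AT2 markers had a median log2 fold change of -0.34 and epithelial genes one of -0.45, beside 0.02 for all tested genes. Of all tested genes, 14.1% were called higher and 5.16% lower. Of 9 tested AT2 markers 1 was called higher, Sftpb (log2 fold change 1.57, adjusted p = 0.109 in limma), and 3 lower. The 3 were Abca3, a lamellar body lipid transporter (-0.63, adjusted p = 0.0492 in limma), Lpcat1 (-0.61, adjusted p = 0.014) and Lamp3 (-0.66, adjusted p = 0.128). Of 4 epithelial genes 2 were called lower, Epcam (-0.49, adjusted p = 0.067 in limma) and Krt8 (-0.82, adjusted p = 0.167). The part of any of these in the class II values was not tested.

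In the fourth comparison, Atg5-/- AT2-BLM against Atg5-/- AT2-PBS, none of the 7 genes met the criterion and their median was close to 0. Of all tested genes, 18.4% met it (7.66% higher, 10.7% lower) and 8.67% had an adjusted p under 0.05. H2-DMb1 was at 154, 156 and 117 FPKM in Atg5-/- AT2-PBS, below every Atg5-/- AT2-BLM sample, with a log2 fold change of 0.39 (SE 0.17, adjusted p = 0.214 in limma). It was the 1 gene of 7 without overlap, against 24.9% of all tested genes, and it stood at -0.07 after scaling to Cdh1. Ptprc was lower in Atg5-/- AT2-BLM (log2 fold change -1.78, adjusted p = 0.00105 in limma). It passed the filter for testing only through Atg5-/- AT2-PBS, where it is high, so the filter favoured that direction. Of all calls here, 41.7% were higher, against 51.4% once quantiles were equalized, 32.3% under median-ratio scaling and 4.42% under scaling to Cdh1.

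The effect of BLM in Atg5-/- AT2 cells was then set against its effect in AT2 cells, as the difference of these log2 fold changes in the same fit. The difference was above 0 for all 7 genes and met the criterion for Ciita (1.04, SE 0.39, adjusted p = 0.14 in limma) and H2-DMb1 (0.62, SE 0.24, adjusted p = 0.167 in limma). Of all tested genes, 20.2% met the criterion (5.02% higher, 15.2% lower) and 7.89% had an adjusted p under 0.05. The mean of Ciita went from 4.35 ± 0.43 FPKM in AT2-PBS to 2.36 ± 0.46 in AT2-BLM, and from 2.67 ± 1.38 in Atg5-/- AT2-PBS to 3.50 ± 0.80 in Atg5-/- AT2-BLM (SD, n = 3). That of H2-DMb1 went from 160 ± 22.9 to 137 ± 22.2 and from 142 ± 21.7 to 186 ± 18.7 FPKM. For the other 5 the difference ran from 0.22 (H2-DMa) to 0.85 (H2-Aa), and the median of the 7 was 0.68, beside -0.09 for all tested genes. Neither call held with scaling to Cdh1 or with Ptprc as a covariate. Of all genes called for this difference, 24.9% were higher, against 53.1% once quantiles were equalized, 34.6% under median-ratio scaling and 10.2% under scaling to Cdh1.

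Around the 7 genes, 39 further genes of the pathway were read in 3 lists. The first held 14 genes of antigen processing and loading, of which 12 were tested. In AT2-BLM, 6 of the 12 were called higher than in AT2-PBS and none lower, against 20.6% higher and 7.77% lower of all tested genes, with a median log2 fold change of 0.59 beside 0.17. Ctss, the cathepsin that trims the invariant chain in presenting cells, was at 12.7, 1.73 and 5.78 FPKM in AT2-PBS and at 28.7, 51.5 and 18.7 FPKM in AT2-BLM (log2 fold change 2.31, adjusted p = 0.0423 in limma). Psap, a lysosomal saposin precursor, rose from 15.7 to 25.8 FPKM in AT2-PBS to 36.3 to 55.3 FPKM (1.18, adjusted p = 0.011 in limma). Ctsd, an aspartic cathepsin, rose from 137 to 171 FPKM to 280 to 355 FPKM (1.00, adjusted p = 0.00376 in limma). The other 3 called genes, Ctsb, Ctsh and Lgmn, are also endosomal proteases. As group means, these proteases were higher and the class II chains lower in AT2-BLM than in AT2-PBS. By library, the chains of AT2-BLM replicate 1 lay within the AT2-PBS range, and Ctsh overlapped AT2-PBS. Macrophages express these proteases too, and 9 of 12 macrophage or monocyte genes were called higher in AT2-BLM. Their part in the rise was not tested beyond a fit with Ptprc as a covariate, in which 4 of the 12 loading genes were called higher and Ctss was not among them. That fit can hardly tell Ptprc from BLM, as given above.

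In Atg5-/- AT2-PBS, 9 of the 12 loading genes were called higher than in AT2-PBS and none lower, with a median of 1.00, beside 14.1% higher, 5.16% lower and a median of 0.02 for all tested genes. The 9 include H2-Oa and H2-Ea-ps, which entered the test only through this group, where they are high, so those calls were set by the filter, and the count and median describe only the genes that passed it. Ctss was at 243, 287 and 263 FPKM (log2 fold change 5.39, adjusted p = 0.000295 in limma) and Psap at 102, 124 and 99.3 FPKM (2.44, adjusted p = 7.5e-05). H2-DMb2, the second DM beta chain, was at 9.88, 14.95 and 8.25 FPKM against 4.28, 1.56 and 1.71 FPKM (1.82, adjusted p = 0.0195 in limma). H2-Oa, a chain of the H2-DO inhibitor of H2-DM known from B cells and dendritic cells, was listed at 0 in all AT2-PBS samples and at 1.61, 1.06 and 2.79 FPKM here. H2-Ea-ps was at 2.06, 9.10 and 4.69 FPKM. The macrophage or monocyte genes summed to 783 to 1086 FPKM in this group and to 43.3 to 96.7 FPKM in AT2-PBS, as given above. With Ptprc as a covariate none of the 12 loading genes was called. Ptprc in this group did not overlap any other group, so that fit can hardly tell it from the genotype.

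In Atg5-/- AT2-BLM, 1 loading gene was called higher than in AT2-BLM, H2-Oa, at 0.60, 0.91 and 0.94 FPKM against 0.45, 0 and 0 FPKM (0.68, adjusted p = 0.613 in limma), and none lower. Of all tested genes, 2.04% were called higher and 3.12% lower there. Against Atg5-/- AT2-PBS, 1 of the 12 loading genes was called higher and 6 lower, beside 7.66% and 10.7% of all tested genes. The 6 include H2-Oa and H2-Ea-ps, which entered the test only through Atg5-/- AT2-PBS, so those calls were set by the filter. Among the 6 were also Ctss (log2 fold change -2.27, adjusted p = 0.0689 in limma) and Psap (-1.398, adjusted p = 0.00496). H2-Eb2 stayed at 0.37 FPKM or below and H2-Ob at 1.62 FPKM or below in every library.

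**Figure D5:**
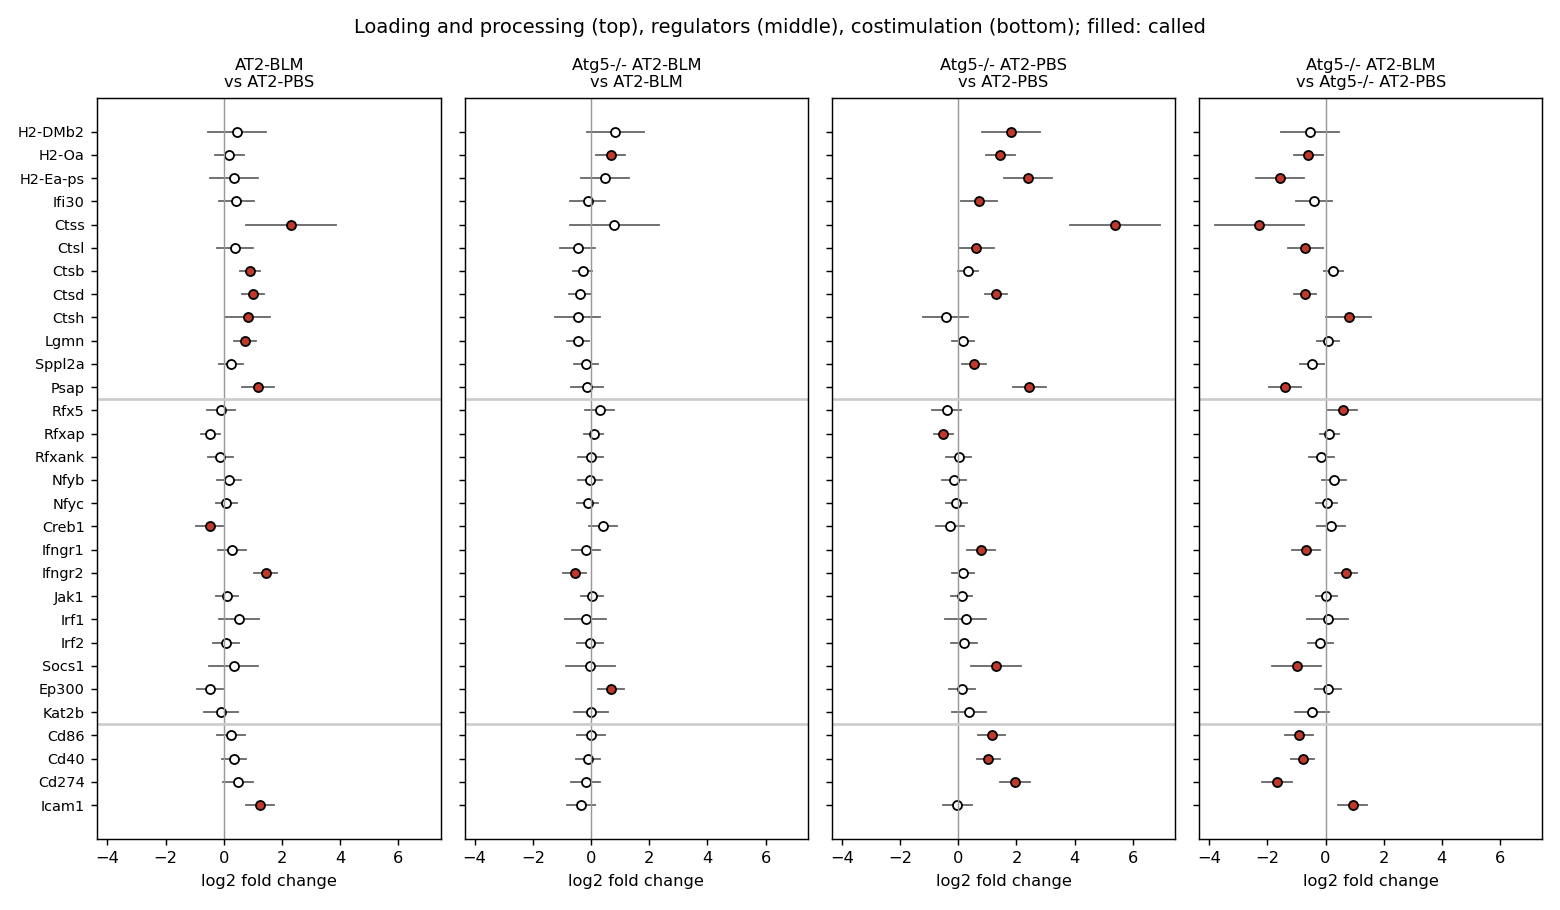
Log2 fold change on the log2(FPKM + 1) scale with 95% intervals from limma for the tested genes of the loading and processing list (top), the regulators (middle) and the costimulation list (bottom), in 4 comparisons; filled points met the criterion. In AT2-BLM against AT2-PBS 6 of 12 loading genes were called higher, and in Atg5-/- AT2-PBS against AT2-PBS 9 of 12.

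The second list held 16 regulators, of which 14 were tested. Of the partners of Ciita at the promoter, the RFX subunits Rfx5, Rfxank and Rfxap and the NF-Y subunits Nfyb and Nfyc were not called with BLM, although Rfxap lay below AT2-PBS in every AT2-BLM sample (log2 fold change -0.46, adjusted p = 0.0595 in limma). Nfya was at 0.37 FPKM or below in every library. Ifngr2, a chain of the interferon-gamma receptor, was at 18.2, 20.8 and 21.4 FPKM in AT2-PBS and at 53.4, 52.9 and 62.2 FPKM in AT2-BLM (log2 fold change 1.44, adjusted p = 0.000871 in limma). It was called in all 19 alternatives. Creb1, which joins the class II enhanceosome, was lower (-0.49, adjusted p = 0.137 in limma). Ciita was thus lower in AT2-BLM while Ifngr2 was higher. In all, 1 of 14 regulators was called higher and 1 lower, with a median of 0.08, against 20.6% higher, 7.77% lower and a median of 0.17 for all tested genes. The regulators as a list thus did not exceed the background.

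In Atg5-/- AT2-BLM, Ifngr2 was at 30.1, 34.9 and 50.1 FPKM, below every AT2-BLM sample (log2 fold change -0.57, adjusted p = 0.607 in limma), and Ep300, a coactivator, was higher (0.69, adjusted p = 0.607). Those were the 2 regulators of 14 called there, against 2.04% higher and 3.12% lower of all tested genes. In Atg5-/- AT2-PBS against AT2-PBS, 2 of 14 were called higher and 1 lower, close to the 14.1% and 5.16% of all tested genes. Socs1, a brake on interferon signalling, was at 9.54, 9.51 and 2.90 FPKM (1.30, adjusted p = 0.0519 in limma) and Ifngr1 at 50.8, 44.9 and 62.7 FPKM (0.77, adjusted p = 0.0403). The lower gene was Rfxap (-0.51, adjusted p = 0.0547 in limma). Socs1 was high in replicates 1 and 2, the libraries with Ins2, and not in replicate 3, so that its call rests on the libraries that held Ins2, without which 1 sample of the group is left. Against Atg5-/- AT2-PBS, 2 of 14 regulators were higher in Atg5-/- AT2-BLM, Ifngr2 among them (0.72, adjusted p = 0.0246 in limma). The 2 lower ones were Ifngr1 and Socs1. Of all tested genes, 7.66% were called higher and 10.7% lower. Ifngr1 kept its call in 14 of 19 alternatives. Socs1, for which the high values are again those of the libraries with Ins2, kept its call in 10.

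The third list held 9 costimulatory and checkpoint ligands, which a presenting cell uses to activate or restrain T cells. Only 4 reached the level for testing. Icam1, the adhesion ligand of LFA-1, was the one expressed at a high level, at 263, 141 and 233 FPKM in AT2-PBS and at 536, 507 and 427 FPKM in AT2-BLM (log2 fold change 1.25, adjusted p = 0.00438 in limma). It was called in all 19 alternatives. Icam1 was also higher in Atg5-/- AT2-BLM than in Atg5-/- AT2-PBS (0.93, adjusted p = 0.022 in limma) and did not meet the criterion for Atg5 loss with BLM or PBS. Cd86 and Cd40, a costimulatory ligand and receptor, were at 1.05 to 2.21 FPKM in Atg5-/- AT2-PBS and at 0.55 FPKM or below in all other libraries. Cd274, the checkpoint ligand PD-L1, was at 4.67, 3.89 and 2.66 FPKM there and at 0.96 FPKM or below elsewhere. Atg5-/- AT2-PBS was also the group with the highest Ptprc. These 3 genes passed the filter for testing only through that group, so a difference from it was set by the filter and their calls are not counted as results. Cd70 was listed at 0 in every library and Tnfsf4 was at 0.06 FPKM or below.

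Genes outside the lists were ranked by how closely their pattern over the 12 samples followed the mean of the 7 genes, as the root mean square difference of log2(FPKM + 1) values, each centred on its own mean. The 7 genes themselves lay between 0.10 (Cd74) and 0.31 (Ciita), and a flat line lay at 0.44. Each of the 7 is part of that mean, so their closeness is partly built in. Of all tested genes, the 7 included, 30 lay closer than Ciita and 15 closer than H2-DMb1. The 5 nearest of the other tested genes were Rsph9, a radial spoke gene of motile cilia (0.22), Gstt1, a glutathione transferase (0.23), Tnfsf13, the cytokine APRIL (0.24), Btd, biotinidase (0.24), and Rdm1 (0.25). Gstt1 was at 144 to 161 FPKM in AT2-PBS, at 119, 112 and 55.6 FPKM in AT2-BLM replicates 1 to 3, at 118 to 128 FPKM in Atg5-/- AT2-PBS and at 106 to 135 FPKM in Atg5-/- AT2-BLM. Each of these 5 genes was lowest in AT2-BLM replicate 3. The ranking is a description with no test, and it rests largely on that library.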

How the data were processed

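Per the labels, AT2 cells were sorted, RNA was extracted with a mirVana kit, and reads were trimmed and aligned to mm9. The labels name Trimmomatic 0.36, HISAT2 2.2.1.0, Cufflinks 2.2.1, HTSeq 0.9.1 and a TruSeq RNA kit, while the methods name STAR, a stranded kit and a further normalization. The deposited values are FPKM per gene, computed by the authors with Cufflinks, and whether they include that normalization is not stated. Depth is therefore unknown and no counting interval is given.

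Limma 3.58.1 (R 4.3.3) fitted 4 group means over 12 samples to log2(FPKM + 1), with trended eBayes, over 10675 genes and adjusted by Benjamini-Hochberg. Two-sided p-values come from this fit, since an exact permutation test of 3 against 3 cannot go below 0.1. The fold scale understates low genes. The members and lists were chosen with earlier results of these data known. Named were the 7 genes, Ptprc, up to 6 called genes per list by size, members near 0 and the 5 nearest patterns. Rfx5, Rfxank, Nfyb, Nfyc, Ctsb, Ctsh, Lgmn, Ins2, Krt8, Epcam, Lcp1 and single cell type markers were named outside that rule after their values were seen. Alternatives changed the pseudocount (0.1), filter, scaling, groups fitted, trend, replicate block, covariates (Ptprc, Y-linked expression), threshold and libraries. Leaving out the libraries with Ins2 was chosen after seeing the data; it leaves Atg5-/- AT2-PBS with 1 sample, which is assumed to vary like the other groups. The fit was tested on simulated data. A regulator is not reported here and is outside the list counts. Coordinates are GENCODE on mm9 (NCBIM37).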

Additional observations from a re-analysis of the deposited data

Results flagged for a closer look

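The effect of BLM differed between Atg5-/- AT2 and AT2 cells, by the test of that difference in limma at the study's criterion, for 2 class II genes. The difference of log2 fold changes was 1.04 for Ciita (adjusted p = 0.14, -0.68 in AT2 and 0.36 in Atg5-/- AT2) and 0.62 for H2-DMb1 (adjusted p = 0.167, -0.23 and 0.39). Neither had an adjusted p under 0.05, and 20.2% of all tested genes met the criterion for this difference. Ciita kept its call in 21 of 24 alternatives and H2-DMb1 in 15 of 24.

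Ptprc differed in the other direction (-2.38, adjusted p = 0.00269 in limma). So did 4 loading genes with an adjusted p under 0.05, Ctss (-4.58, adjusted p = 0.0161), Psap (-2.57, adjusted p = 0.00217), Ctsd (-1.69, adjusted p = 0.00237) and H2-Ea-ps (-1.92, adjusted p = 0.0466). H2-Oa was at -0.77 (adjusted p = 0.192), a value that depends on the pseudocount because AT2-PBS is listed at 0. Among costimulatory genes, Cd274 was at -2.16, Cd86 at -1.16 and Cd40 at -1.14. These 3 genes, H2-Oa, H2-Ea-ps and Ptprc passed the filter for testing only through Atg5-/- AT2-PBS, where they are high, so the filter favoured the sign of their values. Among regulators, Socs1 was at -1.32, Ifngr1 at -0.95, Ifngr2 at -0.72, Creb1 at 0.69 and Rfxap at 0.60. All of these differences use Atg5-/- AT2-PBS, the group with the highest leukocyte, fibroblast and liver RNA, whose part in them was not tested.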

How the results depend on the processing

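Depth limits are unknown without counts. All 7 class II log2 fold changes kept their direction in all alternatives for AT2-BLM against AT2-PBS and for Atg5-/- AT2-BLM against AT2-BLM. Without AT2-BLM replicate 3, however, their median was only -0.17 in the first of these comparisons and 0.18 in the second. The numbers called did not hold, and the cause was not tested.

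For AT2-BLM against AT2-PBS, where 2 of the 7 were called, 5 were with quantile normalization, 6 with a Y-linked covariate, 1 with a pseudocount of 0.1, no filter or only the compared groups, and 0 with Ptprc as a covariate, without the libraries with Ins2, at an adjusted p under 0.05 or at 2-fold. With the Ptprc covariate the log2 fold changes stayed close (H2-Aa -0.88, class II median -0.57), in a fit that can hardly tell Ptprc from BLM. Leaving out 1 library gave 0 to 6. Over all genes 3031 were called, against 1812 with Ptprc as a covariate, 1900 at an adjusted p under 0.05 and 982 at 2-fold. For Atg5-/- AT2-BLM against AT2-BLM, where 0 of the 7 and 551 of all genes were called, 3 of the 7 were with quantile normalization, 1 with median-ratio scaling, 2 with scaling to Cdh1, 6 with a Y-linked covariate, and 0 to 6 with 1 library left out, while 1 of all genes passed at an adjusted p under 0.05 and 101 at 2-fold, and 379 to 807 did with 1 library left out (lowest without AT2-BLM replicate 3). For Atg5-/- AT2-PBS against AT2-PBS, the 1 call became 0 with no filter, only the compared groups, Ptprc as a covariate, an adjusted p under 0.05 or 2-fold, and 0 to 1 with 1 library left out. Of 2058 calls over all genes, 227 were left with Ptprc as a covariate, 1199 at an adjusted p under 0.05 and 1113 at 2-fold. For Atg5-/- AT2-BLM against Atg5-/- AT2-PBS, the count of 0 became 1 with a Y-linked covariate and 2 without the libraries with Ins2, a fit in which Atg5-/- AT2-PBS is replicate 3 alone and is assumed to vary like the other groups, and over all genes 1962 became 624 with Ptprc as a covariate, 926 at an adjusted p under 0.05 and 914 at 2-fold. For the difference between the BLM effects, the 2 calls became 0 with scaling to Cdh1, Ptprc as a covariate or an adjusted p under 0.05, 1 at 2-fold, 7 with a Y-linked covariate, and 1 to 4 with 1 library left out. In the fits with a Y-linked covariate, replicate 3 is the 1 AT2-BLM library with Y-linked expression, and all of Atg5-/- AT2-PBS lies at 0.733 FPKM or below. Those fits can hardly tell Y-linked expression from these samples. Over all genes 2156 became 254 with Ptprc as a covariate, 842 at an adjusted p under 0.05 and 1328 at 2-fold.

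Signs turned as follows. For Atg5-/- AT2-PBS against AT2-PBS, quantile normalization gave -0.10 for H2-Ab1 and -0.11 for H2-Eb1. Scaling to Cdh1 gave 0.27 for H2-Aa, 0.22 for H2-DMb1 and 0.28 for Cd74. Ptprc as a covariate gave -0.14 for H2-Eb1 and 0.30 for Cd74. A Y-linked covariate gave -0.41 for H2-Ab1 and -0.39 for H2-Eb1, and leaving out the libraries with Ins2 gave -0.54 and -0.46. With 1 library left out, H2-Aa ran from -0.30 to 0.15, H2-Ab1 from -0.092 to 0.50, H2-Eb1 from -0.12 to 0.38 and Cd74 from -0.27 to 0.080. For Atg5-/- AT2-BLM against Atg5-/- AT2-PBS, scaling to Cdh1 gave -0.072 for H2-DMb1 and -0.37 for Cd74, and Ptprc as a covariate gave 0.0049 for H2-Aa and -0.16 for Cd74. A Y-linked covariate gave 0.42 for H2-Aa, 0.54 for H2-Ab1, 0.34 for H2-Eb1 and 0.079 for H2-DMa, and leaving out the libraries with Ins2 gave 0.54, 0.75, 0.51 and 0.11. With 1 library left out, H2-Aa ran from -0.31 to 0.15, H2-Ab1 from -0.38 to 0.23, H2-Eb1 from -0.44 to 0.058 and Cd74 from -0.11 to 0.27. For the difference between the BLM effects, H2-DMa was at -0.0084 with scaling to Cdh1 and ran from -0.11 to 0.42 with 1 library left out.

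Whether replicate numbers pair the samples is not stated. Deviations of same-numbered samples from their group means correlated, across genes, between -0.30 and 0.23, with 4 of 18 pairs over 0.1. Samples with different numbers were not compared in this way, so these values cannot show whether the samples are paired. With the replicate number as a block, 3 of the 7 were called for AT2-BLM against AT2-PBS, 3 for Atg5-/- AT2-BLM against AT2-BLM, 1 for Atg5-/- AT2-PBS against AT2-PBS, 0 for Atg5-/- AT2-BLM against Atg5-/- AT2-PBS and 2 for the difference. Loading genes called higher in AT2-BLM ranged from 4 to 7 over the alternatives, other thresholds aside, and those called higher in Atg5-/- AT2-PBS from 0 (Ptprc as a covariate) to 11.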
